A study of Brassica napus with 6 samples.

Results

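A group of 8 Arabidopsis stress and low-energy genes stood among the most widely varying probes in the roots of oilseed rape (Brassica napus). They are AT3G15450, AT1G19530, RD2, ALDH7B4, AT4G38810, AT1G07040, AT4G30450 and AT4G36500. They were chosen from the deposited array values, as genes with wide differences upward after glutathione was put on the leaves, and the whole table holds 13350 genes with a probe of their own. All 8 genes were found, each through 1 probe that the platform annotation pairs with 1 gene. Root RNA of the cultivar Nourin No.16 was measured on 6 single-colour Arabidopsis arrays, 3 for each group, and the labels call the arrays of a group biological replicates. The plants were 4 weeks old and grew in aerated nutrient solution with 4 seedlings to a container. The foliar GSH group had 50 µL of 100 mM reduced glutathione (GSH, the thiol tripeptide that buffers the redox state of plant cells) brushed onto each of 3 expanded leaves every day for 4 days. The solution held MES buffer and the detergent Triton X-100. The control plants are labelled untreated and no brushing with that solution is named for them, so GSH and the brushed solution cannot be told apart. How many plants each array stands for is not given in the sources used here.

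When carbon or light runs short, plant cells switch on the kinase SnRK1, which slows growth and turns on genes for the breakdown of stored carbon, amino acids and proteins. Related kinases of the SnRK2 group answer water shortage and the hormone abscisic acid, and turn on genes that protect cells from drying out. Low oxygen, frequent in roots that stand in water, lowers the energy supply and brings on a further set of genes. In Arabidopsis, AT3G15450 belongs to the genes that sugar shortage and darkness turn on. AT1G19530 belongs to those turned on by low oxygen. RD2 encodes a protein of the universal stress protein family and is named for its response to desiccation. ALDH7B4 encodes an aldehyde dehydrogenase that removes reactive aldehydes under osmotic stress. AT4G38810 encodes an EF-hand calcium-binding protein that binds SnRK2 kinases. AT4G30450 encodes a glycine-rich protein, and no role is given here for AT1G07040 and AT4G36500. The files hold no function for any of them, so the words stress and low energy are background and could not be checked in these data.

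The deposited values lie on a log scale on which arrays barely differ. The median probe spanned 1.91 millionths of a unit from its lowest to its highest array, and the most variable probe spanned 6386. Values are for this reason stated in millionths of a unit relative to the mean of the 3 controls. They are not fold changes, and their sizes cannot be set against each other between genes, because how the spread was reduced is not given in the sources used here. Within a gene, the position of each array between that gene's lowest and highest value does not depend on a scale factor of the gene, and it is given as a percentage of the gene's range. In whole roots, a change in the share of a cell type and a change of RNA per cell cannot be told apart. By limma, 0 of 22746 probes (0%) passed a Benjamini-Hochberg adjusted p under 0.05, while 1535 (6.75%) had an unadjusted p under 0.05. The 8 genes were chosen on this comparison, so their own differences are described without a test.

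The mean after foliar GSH was higher than the control mean at all 8 genes, as the choice of the genes set, where 52.0% of all probes had a higher mean. At 7 of the 8 genes every GSH array lay above every control, against 5.63% of all probes. Among the 1133 probes at least as bright as the dimmest of the genes, that share was 9.44%. The exception was AT4G36500, whose groups overlapped. The difference between the group means made up a median of 57.2% of the gene's range, from 37.3% at AT4G36500 to 69.1% at AT1G07040, and 1.89% over all probes tested. The genes were chosen for these differences, so nothing is read from either comparison.

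**Figure D1:**
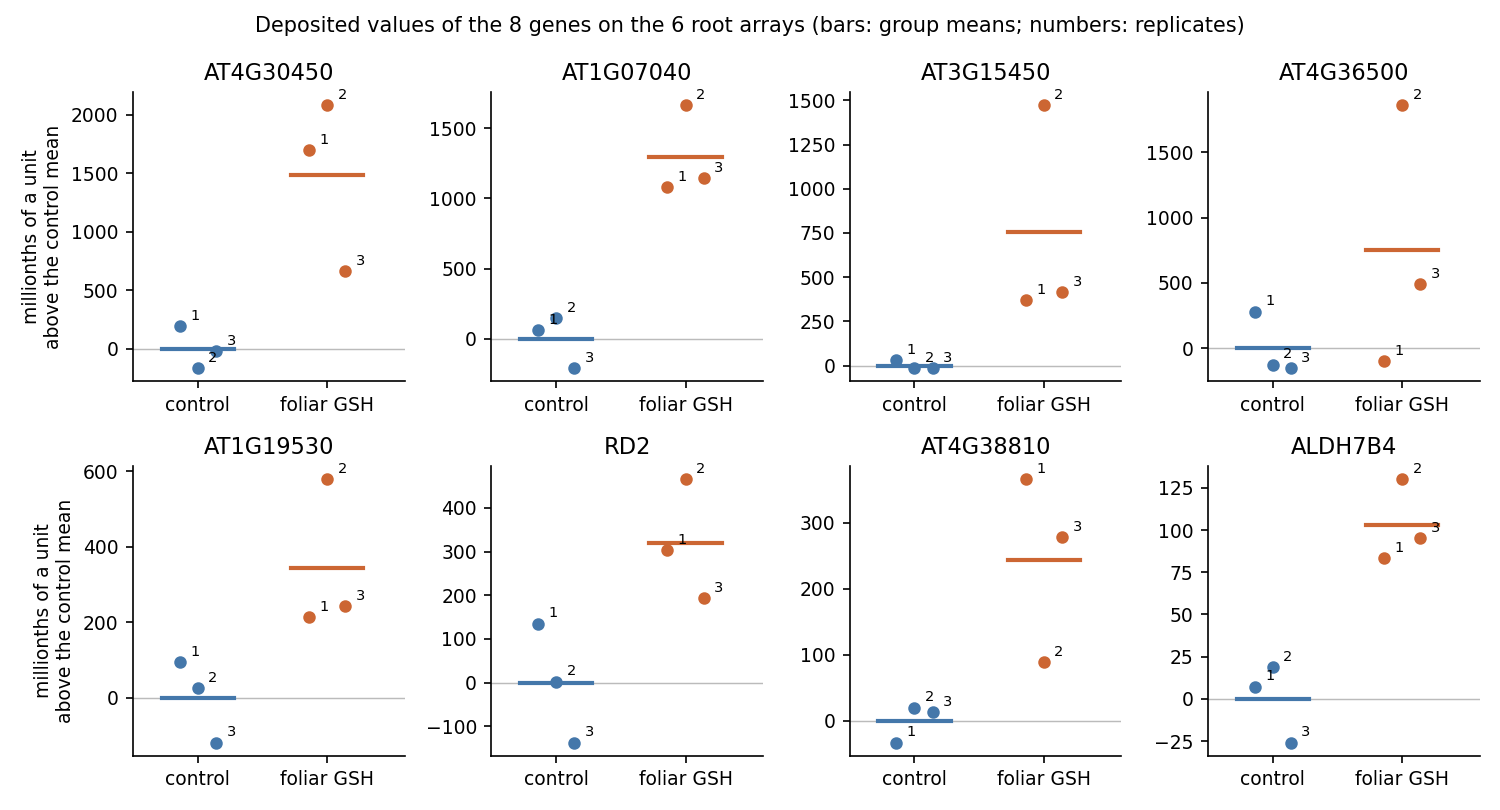
Values of the 8 genes on each array, in millionths of a unit above the mean of the 3 controls (vertical axis, different for each gene), with points for arrays numbered by replicate and bars for group means. At 7 genes all 3 foliar GSH points lie above all controls, and at AT4G36500 GSH replicate 1 lies among the controls.

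AT3G15450, the sugar-shortage gene, had controls close together. They lay at 28.6, -13.1 and -15.5 millionths around their mean. The GSH arrays lay at 371, 1473 and 415 millionths in replicates 1 to 3. Replicate 2 stood 1080.3 millionths above the mean of the other GSH arrays, and the lowest GSH array still lay 343 millionths above the highest control. The group means differed by 753 millionths, with a standard deviation (SD) of 24.8 in the controls and 624 after GSH (n = 3 each). Without GSH replicate 2 the difference was 393 millionths.

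AT1G19530, the low-oxygen gene, showed the same order of the GSH arrays. The controls lay at 94.4, 24.8 and -119 millionths. The GSH arrays lay at 212, 578 and 242 millionths, all above the highest control by at least 118. The difference of 344 millionths (SD 109 in the controls and 203 after GSH, n = 3 each) became 227 without GSH replicate 2.

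The genes tied to drying had their groups close together (RD2) or well apart (ALDH7B4). At RD2 the controls spread over 135, 2.21 and -137 millionths, and the GSH arrays lay at 303, 465 and 193. The lowest GSH array was 57.9 millionths above the highest control, only 9.6% of the gene's range. The group means differed by 320.5 millionths, with an SD of 136 in the controls and 137 after GSH (n = 3 each). ALDH7B4, the aldehyde dehydrogenase, had the narrowest range of the 8 genes. Its controls lay at 7.18, 18.7 and -25.9 millionths and its GSH arrays at 83.5, 130.0 and 95.4. The empty interval between the groups took up 41.6% of its range, the second widest of the genes. The difference of 103 millionths (SD 23.1 in the controls and 24.2 after GSH, n = 3 each) ran from 89.5 to 113 when single arrays were left out.

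AT4G38810, the calcium sensor that binds SnRK2 kinases, ordered the arrays differently from the other genes. Its controls lay at -33.0, 19.9 and 13.2 millionths. Its GSH arrays lay at 366, 89.4 and 278, so replicate 2, the highest array at every other gene, was here the lowest of the GSH arrays. The groups did not overlap, and the lowest GSH array was 69.5 millionths above the highest control. The difference was 244 millionths (SD 28.8 in the controls and 141 after GSH, n = 3 each), and it was 322 without GSH replicate 2.

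AT1G07040 separated the groups most widely for its range. The controls lay at 61.6, 149 and -211 millionths, and the GSH arrays at 1081, 1665 and 1143. An empty interval of 932 millionths, or 49.7% of the range, lay between the groups. The difference of 1296 millionths (SD 187 in the controls and 321 after GSH, n = 3 each) was 1112 without GSH replicate 2 and 1404 at most when any other array was left out.

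AT4G30450, the glycine-rich protein gene, had the largest difference of the 8 in deposited units, which does not rank it against the others in RNA. Its controls lay at 189, -168 and -20.8 millionths. Its GSH arrays lay at 1697, 2081 and 663, so replicate 3 was the lowest and stood nearer to the controls than to the other GSH arrays. The difference was 1480.1 millionths (SD 180 in the controls and 733 after GSH, n = 3 each), and without GSH replicate 3 it was 1889.

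AT4G36500 was high on 1 array. Its controls lay at 280, -126 and -153 millionths. The GSH arrays lay at -99.5, 1861 and 491, so replicate 1 fell between the controls while replicate 2 stood far above every other array. The difference of 751 millionths (SD 243 in the controls and 1006 after GSH, n = 3 each) was 196 without GSH replicate 2, 3.84 times smaller. It was 1176 without GSH replicate 1. The SD after GSH was larger than the difference itself.

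Foliar GSH replicate 2 was the highest array at 7 of the 8 genes, and control replicate 3 the lowest at 6. Control replicate 3 was the lowest at 17.9% of all probes and at 26.1% of those that ranged at least as widely as ALDH7B4. The genes were chosen for rises above the controls, so nothing is read from the 6. The standard deviation was larger after GSH than in the controls at all 8 genes, from 1.01 times the control value at RD2 to 25.2 times at AT3G15450, and it was larger at 54.0% of all probes. Without GSH replicate 2 it was larger at 4 of the 8 genes and at 47.1% of all probes. The ratio at AT3G15450 was then 1.24, and ALDH7B4, RD2, AT1G07040 and AT1G19530 had the smaller SD after GSH. The same array was the highest at 61 of the 134 probes that ranged at least as widely as ALDH7B4, or 45.5% of them. Over all probes tested it was the highest at 15.3%, and among probes at least as bright as ALDH7B4 at 21.4%. The part of this array in the pattern of the 8 genes was not tested beyond leaving it out. Without this array the mean after GSH was higher at all 8 genes, against 53.9% of all probes. The groups did not overlap at 7 genes, against 11.1% of all probes. The genes were chosen for rises on these same arrays, so nothing is read from either comparison.

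**Figure D2:**
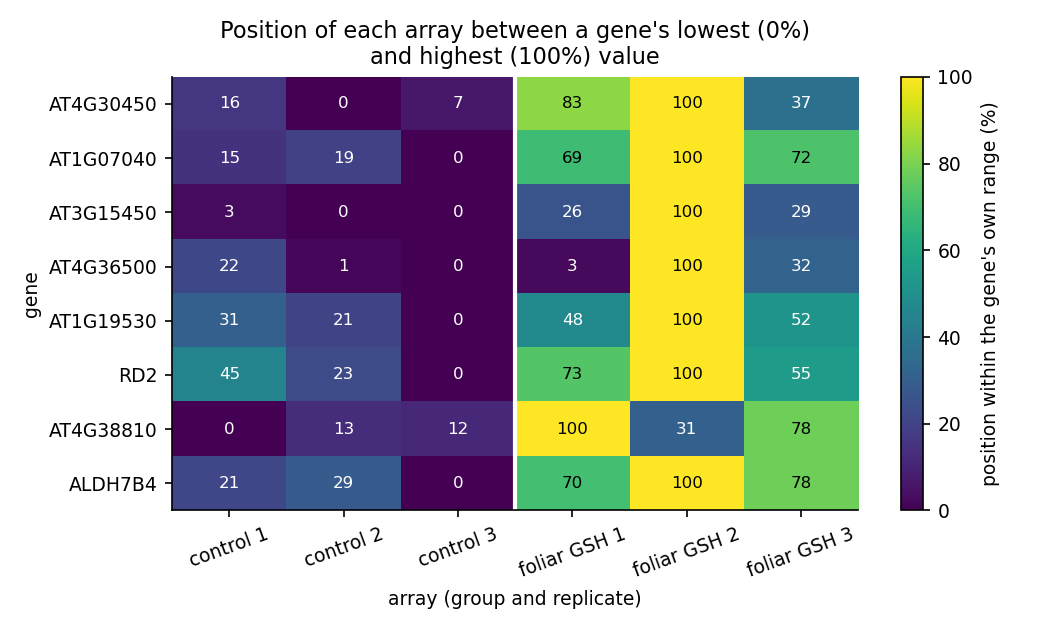
Position of each array (columns, by group and replicate) within the range of each gene (rows), from 0% at the gene's lowest array to 100% at its highest. Foliar GSH replicate 2 is at 100% in 7 rows, and at 31% for AT4G38810, where replicate 1 is the highest.

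The genes varied together across the 6 arrays. Over the 28 pairs of genes the median Pearson r was 0.862, and Spearman's rho had a median of 0.886. These values share 6 arrays and hold the difference between the groups for which the genes were chosen, so they are a description. The closest pair was ALDH7B4 and AT1G07040, which followed the same order of arrays throughout (rho 1) with an r of 0.995. AT3G15450 and AT1G19530 also shared one order of arrays (rho 1) with an r of 0.950. When each group's mean was removed, the median r over the 28 pairs was 0.693. It was 0.757 over the 21 pairs without AT4G38810, where the lowest r was 0.336 and the highest 0.965.

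AT4G38810 differed from the other 7 genes within the groups, in a way that depended on GSH replicate 2. With all arrays, its 7 correlations were below 0 once group means were removed, with a median of -0.843. Without GSH replicate 2 the median was -0.291, the r with AT4G30450 turned to 0.619, and the r with RD2 was -0.088. Leaving out any other single array kept all 7 below 0. The most opposed pair was AT4G38810 and AT4G36500, at -0.999. On the values with the group difference left in, its 7 correlations had a median of 0.476, from -0.0363 with AT4G36500 to 0.636 with AT1G07040. Without GSH replicate 2 the median r of deviations over the 28 pairs was 0.36, and without GSH replicate 1 it was 0.826.

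**Figure D3:**
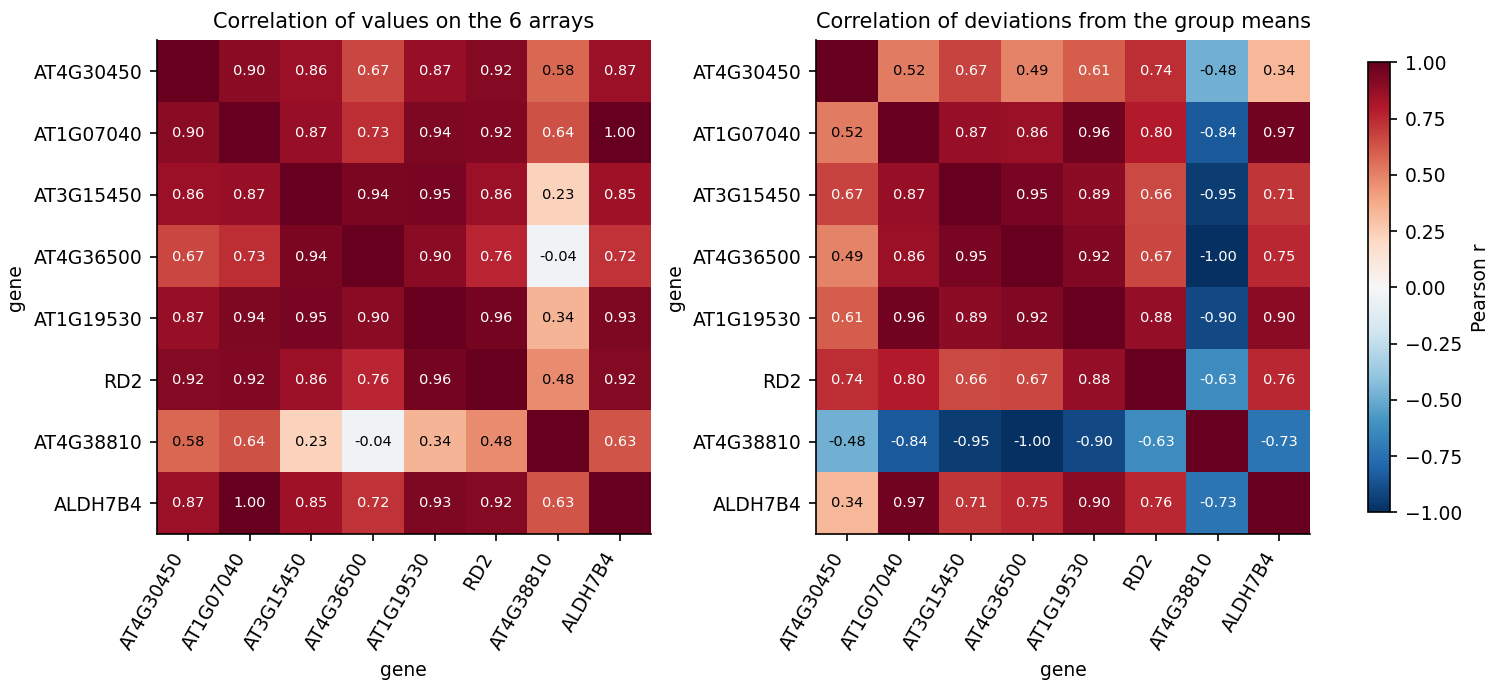
Pearson r between the 8 genes (both axes) over the values of the 6 arrays on the left and over deviations from the group means on the right, with blue for negative and red for positive r. AT4G38810 has negative r with the other 7 genes on the right, from -0.478 with AT4G30450 to -0.999 with AT4G36500. Without GSH replicate 2 the r with AT4G30450 was 0.619.

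The 8 probes were bright and wide. Their mean signals ran from 6.70 for ALDH7B4 to 8.38 for RD2, all above the upper quartile of 6.06, and ALDH7B4 stood at the 95.0th percentile and RD2 at the 99.6th. Signal depends on the probe and on how well a rape transcript matches an Arabidopsis probe, so it gives no order of RNA amounts between the genes. Their ranges were also wide for bright probes. The 1133 probes at least as bright as ALDH7B4 had a median range of 14.3 millionths, and 90.3% of them ranged less than ALDH7B4, the narrowest of the 8 at 156 millionths. AT4G30450 had the 7th widest range of all 22746 probes, at 2249 millionths. Wide differences ran in both directions. Of the 134 probes ranging at least as widely as ALDH7B4, 24 had all GSH arrays above all controls and 28 had all below. Of these 24 probes, 14 were paired with 1 gene, and 7 of those 14 were genes described here. The genes were chosen for wide rises and the narrowest of them sets this cut-off, so nothing is read from the 7.

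**Figure D4:**
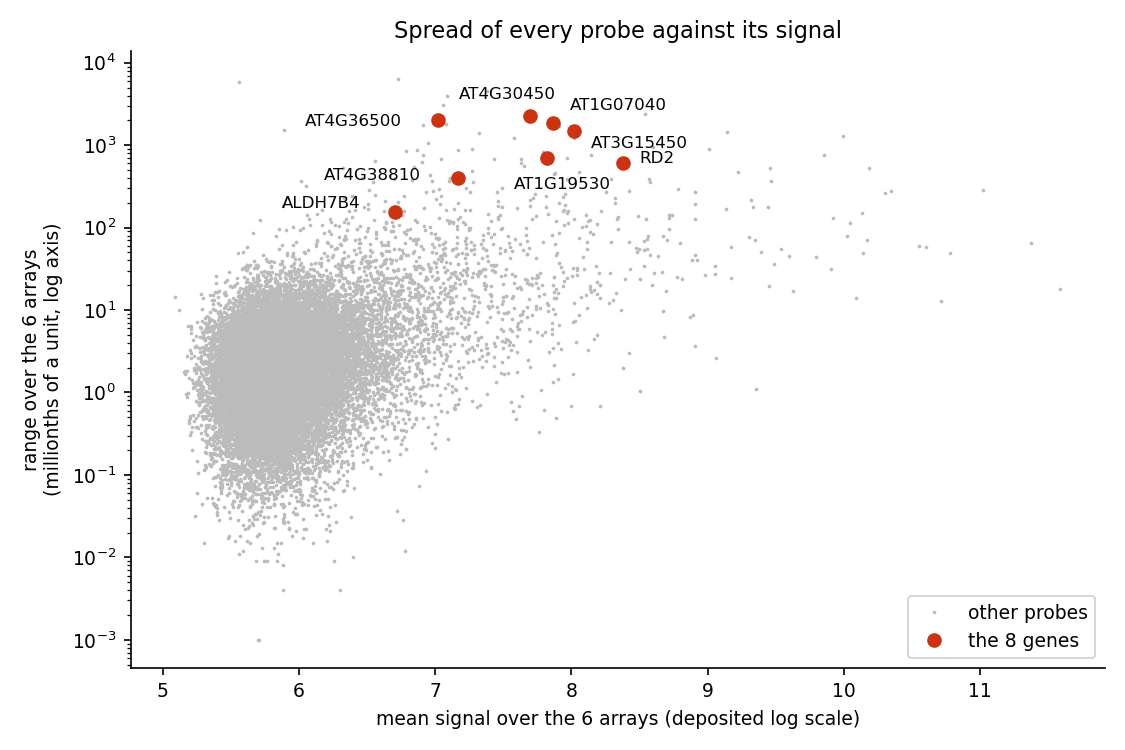
Range of each probe over the 6 arrays, in millionths of a unit on a log axis, against its mean signal on the deposited log scale. Grey points are the other probes tested and red points the 8 genes, which lie at the upper edge of the cloud from ALDH7B4 at 156 to AT4G30450 at 2249 millionths.

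The other measured genes of the low-energy response pointed the same way as AT3G15450. Of 32 listed genes 10 were measured, AT3G15450 among them. Measured, here and for the lists and markers below, means that the platform annotation pairs a probe with that gene alone. It lists no gene for 8730 probes and several for 503, so a listed gene not counted as measured may still have a probe. The mean after foliar GSH was higher at all 9 others, against 52.0% of all probes. At 3 of these 9 all GSH arrays lay above all controls, against 5.63% of all probes. The median difference of the 9 was 44.7% of the range, against 1.89% over all probes. By limma none of the 9 passed over all probes, and 1 had an unadjusted p under 0.05, against 6.75% of all probes. Without GSH replicate 2, which was the highest array at 6 of the 9, the mean was higher at 8 of 9, against 53.9% of all probes. The list was chosen with earlier results of these data known, so nothing is read from these counts.

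The 3 low-energy genes with separate groups encode enzymes of leucine breakdown in mitochondria. MCCA, a subunit of methylcrotonyl-CoA carboxylase, had controls at -7.25, -1.02 and 8.27 millionths and GSH arrays at 56.4, 119 and 39.0. Its difference was 71.6 millionths (SE 22.6, limma adjusted p = 0.654), and it was 47.7 without GSH replicate 2. IVD, isovaleryl-CoA dehydrogenase, differed by 123 millionths (SE 53.3, limma adjusted p = 0.777), and by 74.7 without GSH replicate 2. Its lowest GSH array lay only 2.97 millionths above its highest control. MCCB encodes the other subunit of the carboxylase. The difference there was 47.1 millionths (SE 24.5, limma adjusted p = 0.843), and it was 21.1 without that array. As at most of the 8 genes, GSH replicate 2 was the highest array at all 3. The autophagy gene ATG8E differed by 4.94 millionths, the transcription factor gene BZIP53 by 0.723 and AKINBETA1, a subunit of SnRK1 itself, by 4.00 (SE 3.25, limma adjusted p = 0.949; 1.19 without GSH replicate 2), all with overlapping groups. BZIP53 turned below 0 without GSH replicate 2.

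The family of AT3G15450, proteins with YGL and LRDR motifs, had all 5 of its listed genes measured. The 4 others had higher means after GSH, against 52.0% of all probes. At none of them were the groups apart, against 5.63% of all probes with GSH above and 5.75% with GSH below. AT4G27450, which low oxygen also turns on in Arabidopsis, differed by 23.1 millionths (SE 13.5, limma adjusted p = 0.878). Leaving out single arrays gave 11.8 (without control replicate 3) to 34.9 millionths. AILP1 differed by 19.5 millionths (SE 13.4) and by 5.61 without GSH replicate 1. AT3G22850 differed by 0.817 millionths (SE 1.31), and its sign turned without GSH replicate 1.

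Genes of the low-oxygen response did not share one direction. Of 37 listed genes 17 were measured. Of the 16 other than AT1G19530 the mean was higher at 10 and lower at 6, where 52.0% of all probes were higher. None of the 16 had groups that did not overlap, against 5.63% of all probes with GSH above and 5.75% with GSH below. Nothing is read from that absence. The median difference of the 16 was 12.5% of the range. AT3G29970 differed by 122 millionths (SE 95.7, limma adjusted p = 0.939). Leaving out single arrays gave 44.2 (without GSH replicate 1) to 184. AT4G24110 differed by -79.4 millionths (SE 41.8, limma adjusted p = 0.851) and by -47.2 without GSH replicate 3. With each array centred on its median, which adds 0.598 millionths to every difference, the mean was higher at 13 of the 16. The share of all probes with a higher mean under centring was not computed, so nothing is read from that count. Without GSH replicate 2 the mean was higher at 8 of the 16, against 53.9% of all probes.

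The measured dehydration and abscisic acid genes other than RD2 and ALDH7B4 had overlapping groups. Over all probes the groups were apart at 5.63% with GSH above and 5.75% with GSH below, so nothing is read from that absence. Of 39 listed genes 7 were measured, and 4 of the 5 others had a higher mean, against 52.0% of all probes. Their median difference was 24.95% of the range, against 1.89% over all probes. LTI30, a dehydrin gene, differed by 0.411 millionths (SE 0.461, limma adjusted p = 0.993), and LEA4-5, of the late embryogenesis abundant proteins, by 0.502 (SE 0.571, limma adjusted p = 0.993). Leaving out single arrays took LTI30 from 0.0495 without GSH replicate 1 to 0.861 and turned LEA4-5 just below 0 without GSH replicate 3. LTI30 and COR15A were dim, with signals of 5.66 and 5.63 under the lower quartile of 5.67.

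Relatives of ALDH7B4 and RD2 lay on both sides of 0. Of 16 aldehyde dehydrogenase genes 8 were measured, and the 7 others split into 3 higher and 4 lower, a median of -0.458% of the range. ALDH6B2, a dehydrogenase of branched-chain amino acid breakdown, differed by 23.1 millionths (SE 11.4, limma adjusted p = 0.828), and by 14.7 without control replicate 2. ALDH11A3 differed by 0.395 millionths. ALDH10A8 differed by -1.48, and by -0.542 without GSH replicate 1. Centring turned this split to 6 higher of 7. Of 18 universal stress protein genes 17 were measured, with 10 of the 16 others higher and 6 lower, a median of 12.1% of the range. Centring made that 14 higher of 16, and 8 were higher without GSH replicate 2, against 53.9% of all probes. For the centred counts of both families no share over all probes was computed, so nothing is read from them. None of these 23 relatives had groups apart, against 5.63% of all probes with GSH above and 5.75% with GSH below. Over all probes 52.0% had a higher mean, and nothing is read from these counts. Among the universal stress protein genes, AT3G25930 differed by 0.608 millionths (SE 0.253, limma adjusted p = 0.762), AT2G47710 by 4.13 (2.12 without control replicate 1) and AT3G01520 by -0.593 (-0.395 without GSH replicate 2). The sign of AT3G01520 turned with centring.

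Kinase and calcium-sensor genes near AT4G38810 also split, 5 higher and 4 lower of the 9 others measured from 28 listed genes, where 52.0% of all probes were higher. Centring made that 8 higher, again with no share over all probes computed. Without GSH replicate 2 it was 3 higher, against 53.9% of all probes. AT2G41090, a calmodulin-like gene, had all GSH arrays above all controls and differed by 2.98 millionths (SE 0.911, limma adjusted p = 0.641). Its signal of 5.64 was under the lower quartile. CML43 was named after its values were seen, as the 1 gene of these lists with all GSH arrays below all controls, at -0.15 millionths (SE 0.149, limma adjusted p = 0.977), a size below the 0.598 that centring adds. CML23 differed by -0.214 millionths and also turned with centring. Of 18 genes that respond rapidly to wounding, touch or elicitors, the annotation paired a probe with STZ and WRKY53 alone. They differed by 3.52 millionths (SE 1.83) and 0.177 (SE 0.273), with overlapping groups, and WRKY53 turned below 0 without GSH replicate 2. Across all 8 lists, 64 genes outside the 8 were measured. By limma 0 of them passed over all probes and 2 had an unadjusted p under 0.05, MCCA and AT2G41090. Their groups did not overlap at 4 genes with GSH above and at 1 with GSH below, against 5.63% and 5.75% of all probes.

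**Figure D5:**
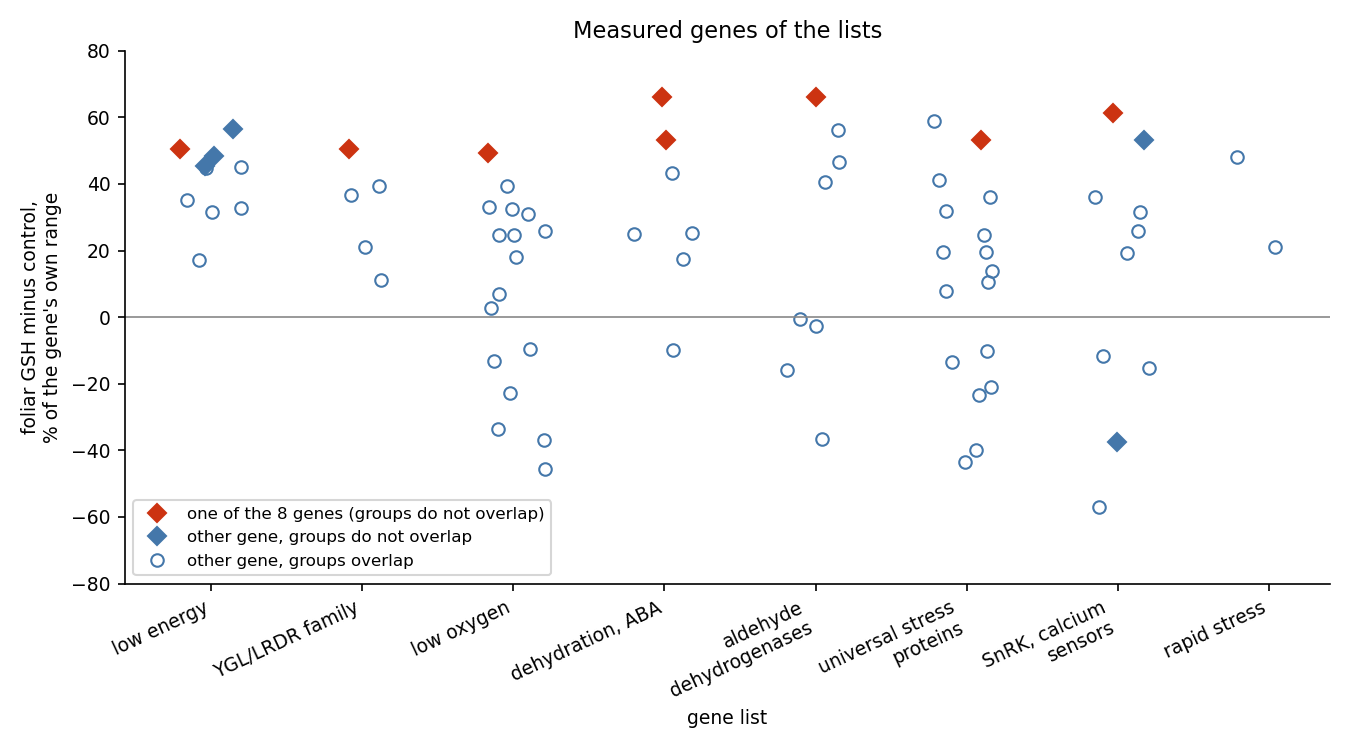
Difference of the group means as a percentage of each gene's own range (vertical axis) for the measured genes of the 8 lists (horizontal axis), with red for the genes described here and blue for others, filled diamonds for groups that do not overlap and open circles for groups that do. All points of the low-energy list lie above 0, while the low-oxygen and universal stress protein lists lie on both sides. The lists were chosen with earlier results of these data known, so nothing is read from this contrast.

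Genes outside the 8 whose values over the 6 arrays were most like the mean of the 8 standardized profiles included a plastid gene. The measure was Pearson r over 6 arrays, without a test, and 202 probes (0.888% of those tested) reached 0.9, among them 6 of the 8 genes. Of the genes outside the 8 on probes paired with 1 gene, atpE, a plastid-encoded subunit of the ATP synthase, had the highest r. It was 0.995, above any of the 8 genes themselves, and atpE differed by 132 millionths. The next were AT2G29300 at 0.99, AT4G13130 at 0.986, AT4G22320 at 0.983, AT1G19020 at 0.983 and AT1G33110 at 0.980. The difference took up 58.5% of the range at AT2G29300, 67.4% at AT4G13130, 66.9% at AT1G19020 and 61.2% at AT1G33110. AT4G22320 ranged over only 0.004 millionths, 4 steps of the last deposited digit, so its likeness rests on rounding. AT1G07040 was the most typical of the 8 (r 0.986) and AT4G38810 the least (r 0.543).

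Among genes with a probe of their own, none outside the 8 had separate groups and a difference above 547 millionths, the median of the 8. Probes listed with several genes or with no gene were left out of this search. AT4G30450, with the largest difference of the 8, ranked 4 over all probes, so some other probes differed more. The 8 genes were chosen for wide rises, so nothing is read from this absence. Under the same limits, the 3 genes next below were MT1C, AT4G19880 and atpB, which ranked 14, 15 and 16 in difference over all probes. The metallothionein gene MT1C differed by 399 millionths. AT4G19880, of the glutathionyl-hydroquinone reductases, differed by 398, and the plastid ATP synthase gene atpB by 359. GSH replicate 2 was the highest array at all 3. Their differences took up 53.1%, 52.7% and 51.3% of their ranges, close to the 53.2% of RD2.

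The tissue label could be checked on few genes. Of 15 root markers 2 were measured, EXPA7 and EXPA18, expansin genes of root hairs, with signals of 6.13 and 5.95. Of 18 green-leaf markers RCA and LHCB4.1 were measured, with signals of 6.04 and 5.75. Of these 4 probes EXPA7 alone was above the upper quartile. EXPA7 differed by -27.3 millionths (SE 20.8), EXPA18 by -2.12 (SE 5.12), RCA by -0.0573 (SE 0.148) and LHCB4.1 by 0.28 (SE 0.187), all with overlapping groups. The signs of EXPA18 and RCA turned when single arrays were left out, EXPA18 without control replicate 3 and RCA without control replicate 1, and RCA also with centring. EXPA7 was at -47.7 without GSH replicate 3, and LHCB4.1 at 0.152 without control replicate 1. The part of tissue composition in the values of the 8 genes was not tested.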

How the data were processed

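The authors deposited 1 table of log2-like values, a column for each array, and it was used as deposited. Per the labels' protocols, 100 ng of RNA per array was turned into biotin-labelled cRNA. The submitters' processing notes list R 2.7.2. The sources used here do not give the background correction, the summary, the normalization or the log base, and the log2 unit was taken from the range of the values (5.09 to 11.6). Depth in counts does not apply, and precision is limited by having 3 arrays a group.

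Of 22810 probes, 64 array controls were left out. The platform annotation paired 13513 of the other probes with 1 gene, 503 with several and 8730 with none listed. The 2 groups entered a linear model in limma 3.58.1 (R 4.3.3) with lmFit and eBayes, without a filter on dim probes and with Benjamini-Hochberg adjustment over 22746 probes. The fit was also run on simulated data, where a limit on false calls was required only with equal noise at every probe. The probes here vary unequally, so that run does not give the share of false calls for these data. Figures and descriptions used Python 3.11.15.

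The members, the 8 gene lists and the rules were chosen with earlier results of these data known, and list genes come from knowledge of Arabidopsis. The rule named all members, the 6 genes with the most alike profile, up to 3 genes on each side of the median member in difference, and, of each list, every measured gene up to 4, otherwise the 4 with the smallest unadjusted limma p; ATG8E, BZIP53 and CML43 were named beyond it, after their values were seen. The alternatives tried are named under how the results depend on the processing. No sequence was used here.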

Additional observations from a re-analysis of the deposited data

How the results depend on the processing

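The count of probes called by limma, 0 on the deposited values, was 44 after quantile normalization, 4 among probes above the median signal, 4 at an adjusted p under 0.10 and 1 with replicate numbers entered as a block. It stayed at 0 with centred arrays, trended and robust variance, Welch's test (1012 at an unadjusted p under 0.05) and without any single array. Deviations of same-numbered arrays correlated at -0.0214, -0.0156 and 0.0992, so the numbers were not taken as pairs. Each replicate number holds 1 array of each group, so the block cannot move a difference. Nothing is read from the differences it left unchanged. Quantile normalization left 2688 probes and 3 of the 8 genes varying, because the others kept their rank on every array. It gave 3 of the 8 genes a higher mean and 1 with separate groups, with a median r of 0.697 over the 3. The median r within groups could not be computed there. Without single arrays, the count with separate groups ran from 7 to 8, the count with a higher mean was 8, and the median r ran from 0.839 to 0.914 over the arrays and from 0.36 to 0.826 within groups. Every gene has 1 probe, so a choice among probes was not run.

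Differences of the 8 genes kept their sign with centring, group medians and without any single array, and 3 of them moved by more than 1.5 times without one array. Of the 34 other genes named by the rule 20 did so, and 5 turned sign (in millionths, -0.00817 to 0.959 for LEA4-5, -0.188 to 1.77 for AT3G22850, -0.00683 to 0.414 for WRKY53, -5.75 to 3.13 for EXPA18 and -0.135 to 0.0127 for RCA). ATG8E, BZIP53 and CML43, named beyond the rule, are not among the 34, and BZIP53 also turned sign without GSH replicate 2. Centring, which adds 0.598 to each difference, gave 0.00483 for AT3G01520, 0.384 for CML23 and 0.541 for RCA. Group medians gave 2.05 for EXPA18, and quantile normalization gave 55.9 for ALDH10A8. The cause of these turns, other than the shift added by centring, was not tested. List counts without GSH replicate 2 and with centring were added after seeing the data, as were the SDs of the 8 genes and the correlations of AT4G38810 without single arrays.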
